A study of Mus musculus with 8 samples.

Results

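The aminoacyl-tRNA synthetases are the enzymes that join each amino acid to its transfer RNA. Their genes were followed in common lymphoid progenitors (CLPs) of the mouse, marrow cells from which B, T and natural killer cells develop. The members were the protein-coding genes whose mouse symbol is 1 letter, "ars" and an optional digit, together with Eprs, Farsa and Farsb. Of the 39179 gene IDs listed, 36 genes chosen by this rule are described, 20 of them cytosolic and 16, with symbols ending in 2, mitochondrial. All 36 had a value in all 8 libraries.

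The libraries were total RNA libraries from C57BL/6 bone marrow, 4 labelled ex vivo CLP and 4 labelled cCLP. The ex vivo cells were sorted directly. The cCLPs had been grown for 2 months on OP9, a mouse stromal cell line, with Flt3L and a low concentration of IL-7 before sorting. Both groups carried the same surface phenotype in the labels, negative for lineage markers and Ly6d and positive for IL7R, Flk2 and CD27. No genetic change was named for either group, and no label tied a library to an animal, a culture or a batch, so p-values measure only the spread between these libraries, which may be technical.

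The values as deposited are whole numbers that vary too little between libraries to be raw read counts, so the sequencing depth is unknown and no counting interval is given. They summed to between 378594 and 704305 per library, with 11371 to 12779 genes above 0. Values below are scaled, meaning the deposited value divided by a factor for its library, unless called deposited. Because the deposited values are whole numbers, low genes move in coarse steps. Bulk RNA cannot tell fewer cells of a type from less RNA per cell.

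Libraries ex vivo CLP 2 and cCLP 1 went against their labels. Across genes, the rank correlation (Spearman's rho) of ex vivo CLP 2 was 0.965 to 0.986 with cCLP 2 to 4 and 0.764 to 0.8285 with the other ex vivo libraries. That of cCLP 1 was 0.949 to 0.977 with ex vivo CLP 1, 3 and 4 and 0.810 to 0.820 with the other cCLP libraries. Igf2bp3, an RNA-binding protein of fetal progenitors, was listed at 74 deposited in ex vivo CLP 2, at 83 to 106 in cCLP 2 to 4 and at 0 in the remaining libraries. Rag1, the recombinase gene of lymphoid precursors, was at 276 to 391 deposited in those same 4 libraries and at most 7 in the others. Results are therefore given over the 8 libraries as labelled and over 6 libraries, ex vivo CLP 1, 3 and 4 against cCLP 2, 3 and 4. No library was moved to the other group, and p-values over 6 libraries hold only given that choice.

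The gate genes Il7r, Flt3 and Cd27 were above 0 in every library. Ly6d, which the sort selected against, was at 22 to 41 deposited in ex vivo CLP 1, 3 and 4 and cCLP 1 and at 0 or 1 in the other libraries. The 4 granulocyte markers S100a8, S100a9, Elane and Ctsg summed to 553, 0, 1299 and 1834 deposited in libraries 1 to 4 of the ex vivo group and to 539 in cCLP 1, and were at 0 in cCLP 2 to 4, and the monocyte marker Csf1r followed the same libraries (32, 0, 45 and 94, then 56, 0, 0 and 0). Their part in any difference over the 6 libraries was not tested. Mature B, T, natural killer and erythroid lists summed to at most 17 deposited in any library. Of the 5 stromal markers, Col1a1, Col1a2, Col3a1 and Sparc were at 0 in every library, and Pdgfrb was at 3 to 12.

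Each synthetase recognises 1 amino acid and its transfer RNAs, and the charged transfer RNAs feed the ribosome. Cytosol and mitochondria mostly use separate enzymes, both encoded in the nucleus, while Gars and Kars each supply both compartments from 1 gene. The enzymes fall into class I and class II by the fold of their catalytic core. In animals several cytosolic synthetases are held in a multisynthetase complex by the scaffold proteins Aimp1, Aimp2 and Eef1e1. Transcription factor ATF4, which cells make when amino acids run short, is known to raise many cytosolic synthetase genes together.

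The family held a similar small part of the profile in every library. Its 36 genes made up 0.222 to 0.255% of the summed deposited values in the ex vivo libraries and 0.235 to 0.264% in the cCLP libraries, ranges that overlap. The mitochondrial genes supplied 14.7 to 17.4% of the family's sum. By scaled value, which is not corrected for gene length and so ranks signal rather than transcripts, Kars (111.7 to 146.3) and Dars (101.1 to 117.4) stood highest in the 8 libraries. Most mitochondrial genes were much lower, and 8 of them were too low to test over 6 libraries.

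**Figure D1:**
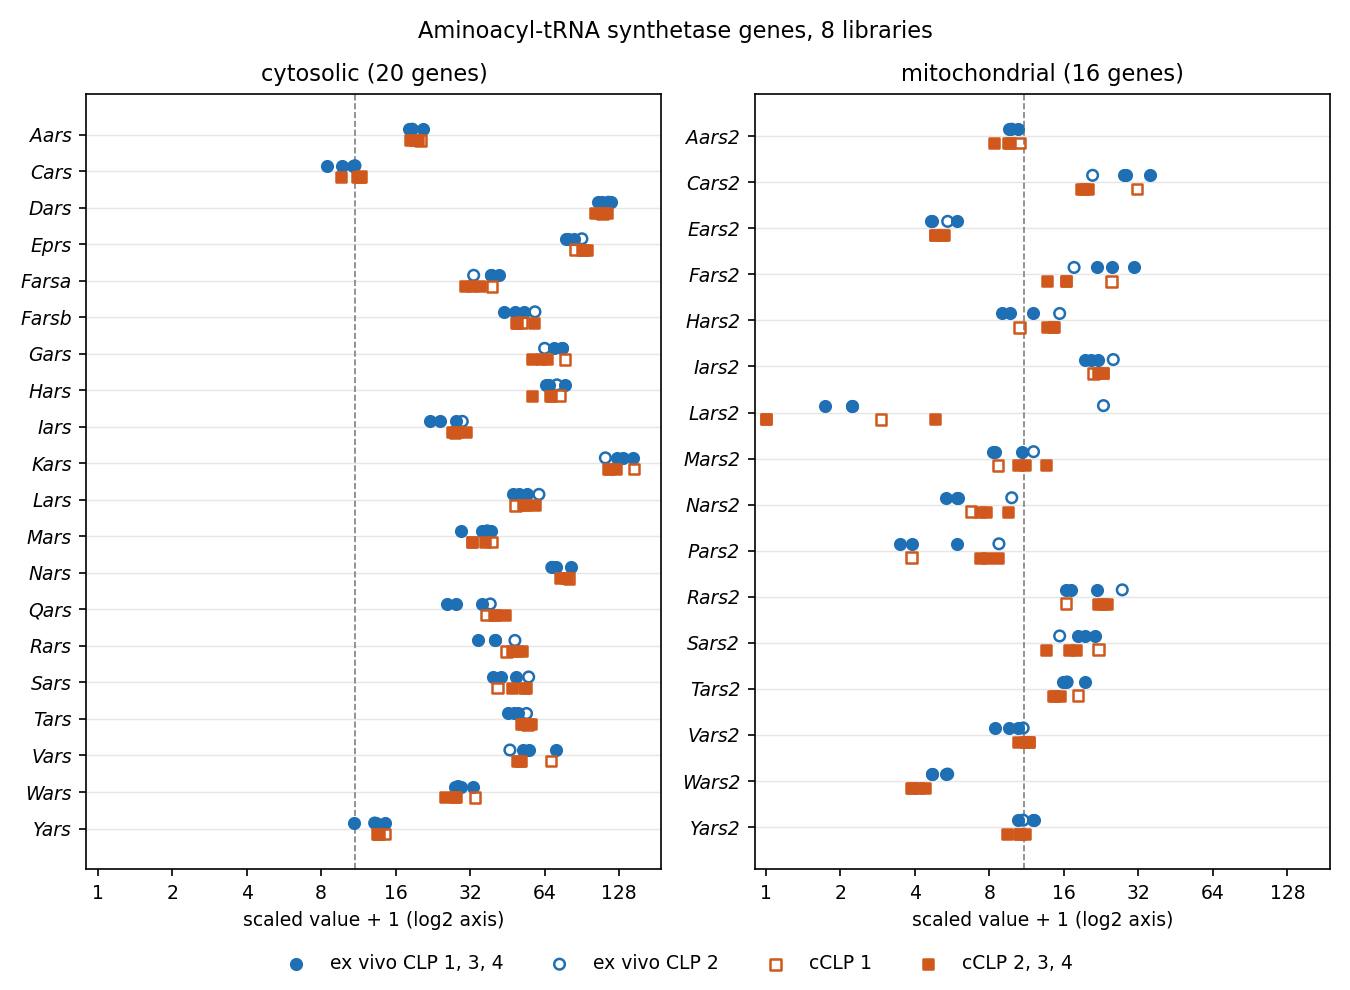
Scaled value plus 1 on a log2 axis for each of the 36 synthetase genes in each library, cytosolic at left and mitochondrial at right. Circles are ex vivo CLP, squares cCLP, open symbols the libraries ex vivo CLP 2 and cCLP 1, and the dashed line a scaled value of 10, the filter for testing; most cytosolic genes vary little, while Lars2 stands far out in ex vivo CLP 2.

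With the 8 libraries as labelled, no synthetase gene passed the test for a difference. The test was limma on log2(scaled value + 1), with Benjamini-Hochberg adjustment over every gene tested and a two-sided adjusted p below 0.05 as the call. A gene was tested when it reached a scaled value of 10 in enough libraries to fill the smaller group. It called 0 of the 26 members tested, against 0.0% of the 6486 genes tested, and 1 member had an unadjusted p below 0.05 against 7.35% of all genes. Fold changes are log2, cCLP minus ex vivo CLP. The members' median was 0.02, against -0.0013 for all genes, and they ran from -0.43 for Fars2 to 0.36 for Qars. The 95% confidence interval of the difference lay inside a 2-fold change in either direction for all 26, against 81.4% of all genes tested.

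The 3 smallest p-values over 8 libraries belonged to Qars, Rars and Fars2. Qars, the cytosolic glutaminyl-tRNA synthetase, was at 27.0, 37.6, 24.7 and 34.9 in ex vivo libraries 1 to 4, and at 36.4, 43.2, 39.4 and 39.1 in cCLP 1 to 4. The lowest cCLP value lay under the highest ex vivo value, so the groups overlapped. Its difference was 0.36 ± 0.14 (SE) on the log2 scale, with an unadjusted p of 0.037 and an adjusted p of 0.484 by limma. Rars differed by 0.25 ± 0.12 (adjusted p 0.484, limma) and Fars2 by -0.43 ± 0.22 (adjusted p 0.484, limma). The groups did not overlap for 0 of the 26 tested members, against 3.48% of all genes. Among the untested ones, Wars2, the mitochondrial tryptophanyl enzyme, did not overlap on the scaled values (3.68, 4.42, 3.71 and 4.36 in ex vivo libraries 1 to 4 against 2.87, 3.16, 2.88 and 3.40 in cCLP). Its deposited values, 3, 4, 3 and 6 against 3, 3, 3 and 4, did overlap, so the gap was seen only after scaling. Its origin was not tested.

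Over the 6 libraries, 3 synthetase genes were higher in cCLP (Qars, Hars2 and Rars) and 3 were lower (Fars2, Cars2 and Farsa). These 6 were 22.2% of the 27 members tested, where 43.0% of the 6573 genes tested were called, 20.8% higher and 22.2% lower. Leaving out cCLP 2, cCLP 3 or cCLP 4 brought the 6 to 3, 2 and 2, and leaving out ex vivo CLP 1 raised it to 10. Calls among all genes moved the same way. Without cCLP 2, cCLP 3 or cCLP 4, 971, 989 and 889 genes were higher and 1217, 1239 and 1276 lower. Without ex vivo CLP 1, 1584 were higher and 1824 lower, against 1369 and 1459 with all 6 libraries. The members' median was -0.0038, against 0.0052 for all genes. The interval of the difference lay inside 2-fold for 26 of 27 members (96.3%), the exception being Fars2, and for 77.8% of all genes. An unadjusted p below 0.05 was found for 9 members, against 50.7% of all genes. The groups did not overlap for 15 tested members (55.6%), against 55.7% of all genes. The 21 members without a call had differences from -0.30 (Sars2) to 0.34 (Rars2). Of the 19 cytosolic members tested, 2 were higher and 1 lower, with a median of 0.06, and of the 8 mitochondrial members tested, 1 was higher and 2 lower, with a median of -0.18. The granulocyte markers separated these 2 groups of 3 completely, as given above.

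**Figure D2:**
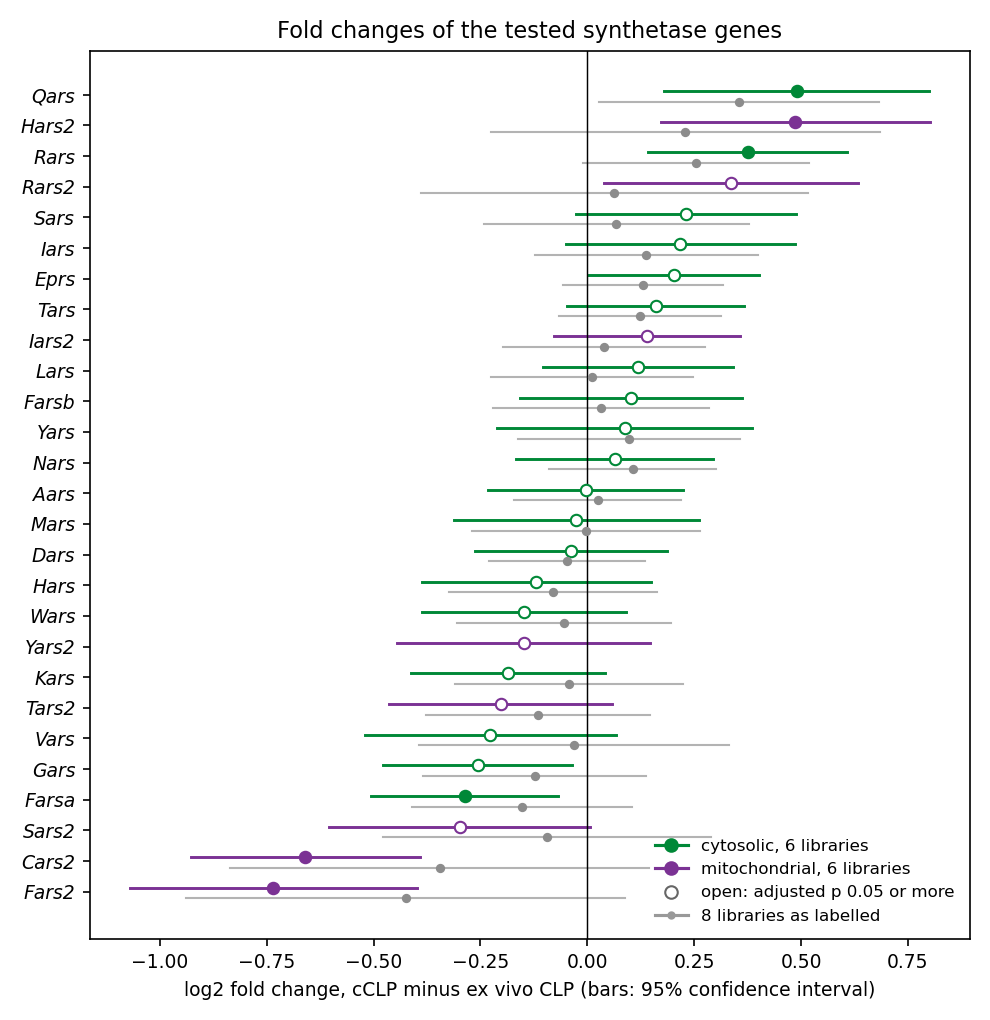
Log2 fold change, cCLP minus ex vivo CLP, of each tested synthetase gene, with 95% confidence intervals. Coloured points are the 6 library comparison (green cytosolic, purple mitochondrial, filled where the adjusted p is below 0.05) and grey points the 8 libraries as labelled; the filled points run from -0.73 for Fars2 to 0.49 for Qars, and grey points lie nearer 0 for the 6 called genes.

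Fars2 showed the largest difference among the 27 members tested. It encodes the mitochondrial phenylalanyl-tRNA synthetase, which works as a single chain. The gene (ENSMUSG00000021420, chr13:36117412-36726280, plus strand, GRCm38) was at 20.8, 29.7 and 24.0 in ex vivo libraries 1, 3 and 4, and at 12.6, 15.4 and 15.3 in cCLP 2, 3 and 4. Every ex vivo value lay above every cCLP value. The means were 24.8 ± 4.48 and 14.4 ± 1.55 (SD, n = 3 each), a log2 difference of -0.73 ± 0.15 (SE; interval -1.07 to -0.40; adjusted p 0.00468, limma). It was called under all 16 alternative settings of the 6 library fit, with adjusted p from 0.000203 to 0.0256. On the opposite strand it shares 115 exonic bases with Lyrm4, which was at 9 to 15 deposited in every library, and 501 with Nrn1, at 0 or 1.

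The cytosolic phenylalanyl enzyme is built from the subunits of Farsa (catalytic, alpha) and Farsb (beta). Farsa (ENSMUSG00000003808, chr8:84856989-84869257, plus strand) was at 38.0, 40.8 and 37.8 in ex vivo libraries 1, 3 and 4, and at 29.5, 31.7 and 33.96 in cCLP 2, 3 and 4. The groups did not overlap, and the difference of -0.29 ± 0.10 was called (38.9 ± 1.68 against 31.7 ± 2.24, SD, n = 3; adjusted p 0.0407, limma). That call held in 9 of 16 alternative settings. Settings that ended it included scaling by library sum (adjusted p 0.0716), and it was also lost when library 3 (0.0865) or 4 (0.0558) of the ex vivo group or library 2 (0.151), 3 (0.118) or 4 (0.0587) of the cCLP group was left out. Farsb was at 47.8, 51.9 and 42.9 against 48.4, 48.0 and 56.9 and overlapped between groups, with a difference of 0.10 ± 0.11 (adjusted p 0.495, limma). The difference between Farsa and Farsb was not tested.

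Cars2 followed Fars2 in size among the members tested. It encodes the mitochondrial cysteinyl-tRNA synthetase, an enzyme that also makes cysteine persulfides. Cars2 (ENSMUSG00000056228, chr8:11513977-11550783, minus strand) was at 27.0, 34.6 and 27.6 in ex vivo libraries 1, 3 and 4, and at 19.0, 18.3 and 17.8 in cCLP 2, 3 and 4, with no overlap. The means were 29.7 ± 4.24 and 18.3 ± 0.568 (SD, n = 3), and the difference of -0.66 ± 0.12 had an adjusted p of 0.00266 by limma. All 16 alternative settings kept the call (adjusted p 0.000265 to 0.0163). Its exons share 422 bases with Naxd on the opposite strand. Naxd, a repair enzyme for damaged NADH and NADPH, was at 16, 25, 16 and 23 deposited in ex vivo CLP 1 to 4 and 19, 22, 25 and 30 in cCLP 1 to 4, and whether the counting used strand is not stated. Cars, the cytosolic counterpart, was too low to test (8.65 ± 1.197 against 9.79 ± 1.00, SD, n = 3).

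The 250 bases ahead of the RefSeq start of these genes (GRCm38.p6) are shown because Fars2 and Cars2 were the 2 synthetase genes called under every alternative setting of the 6 library fit. Over 8 libraries neither was called. Both windows read 5′ to 3′ on the gene's own strand, chr13:36117393-36117642 on the plus strand for Fars2 and chr8:11550772-11551021 on the minus strand for Cars2.
Fars2: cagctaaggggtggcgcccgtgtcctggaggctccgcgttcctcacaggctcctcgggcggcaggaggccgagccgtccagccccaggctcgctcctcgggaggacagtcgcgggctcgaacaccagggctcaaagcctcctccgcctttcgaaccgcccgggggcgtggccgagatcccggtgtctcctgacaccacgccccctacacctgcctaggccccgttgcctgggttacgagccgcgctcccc
Cars2: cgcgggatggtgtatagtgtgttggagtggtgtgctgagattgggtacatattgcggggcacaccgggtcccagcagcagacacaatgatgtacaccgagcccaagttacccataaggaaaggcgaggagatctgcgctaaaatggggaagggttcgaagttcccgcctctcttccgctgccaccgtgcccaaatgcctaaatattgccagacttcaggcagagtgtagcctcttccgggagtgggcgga
With the 50 bases after the start included, G and C made up 71.7% of the Fars2 promoter and 59.0% of that of Cars2, where the median of the 32851 mouse promoters in the same RefSeq set was 52.7%. No letters are in capitals because neither motif searched below occurred in either window.

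Hars2 was the mitochondrial gene that was higher in cCLP. It encodes the histidyl enzyme (ENSMUSG00000019143, chr18:36783008-36792562, plus strand) and was at 11.03, 8.65 and 7.99 in ex vivo libraries 1, 3 and 4, and at 12.6, 13.5 and 13.6 in cCLP 2, 3 and 4. Every cCLP value exceeded every ex vivo value, with a difference of 0.49 ± 0.14 (9.23 ± 1.599 against 13.2 ± 0.513, SD, n = 3; adjusted p 0.0214, limma). Ex vivo libraries 3 and 4 were under the filter of 10, so the gene passed it only with the cCLP libraries, where it was higher. It was not tested where every library had to reach 10. Hars2 was called in 11 of 15 alternative settings and lost when ex vivo library 4 (adjusted p 0.0505) or cCLP library 2 (0.0553), 3 (0.0746) or 4 (0.0843) was left out. Hars lies beside it on the opposite strand and shares 195 exonic bases. Hars differed by -0.12 ± 0.12 (68.6 ± 7.02 against 63.1 ± 6.29, SD, n = 3; adjusted p 0.440, limma), and its groups overlapped.

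Rars, the arginyl enzyme of the multisynthetase complex (ENSMUSG00000018848, chr11:35808381-35834506, minus strand), was at 39.2, 33.4 and 39.2 in ex vivo libraries 1, 3 and 4, and at 46.3, 50.9 and 48.4 in cCLP 2, 3 and 4. The groups did not overlap and the difference was 0.38 ± 0.10 (37.3 ± 3.38 against 48.5 ± 2.30, SD, n = 3; adjusted p 0.0184, limma). The call held in 14 of 16 alternative settings and was lost without cCLP 3 (adjusted p 0.0789) or cCLP 4 (0.0610). Its mitochondrial counterpart Rars2 was at 20.8, 16.1 and 15.3 against 21.1, 22.1 and 22.9. Rars2 was not called, with a difference of 0.34 ± 0.13 (adjusted p 0.0672, limma), but it was called without ex vivo CLP 1 (0.00677).

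Qars also belongs to the complex and has no mitochondrial counterpart, because mitochondria make glutaminyl-tRNA by amidating glutamyl-tRNA. Over 6 libraries Qars (ENSMUSG00000032604, chr9:108507706-108515941, plus strand) was at 28.9 ± 5.33 in ex vivo CLP and 40.5 ± 2.29 in cCLP (SD, n = 3 each), a difference of 0.49 ± 0.13 (adjusted p 0.0198, limma). The lowest cCLP value, 39.1, lay above the highest ex vivo value, 34.9. The call held in 12 of 16 alternative settings, and the settings that ended it included leaving out cCLP library 2 (adjusted p 0.0712), 3 (0.0518) or 4 (0.0537).

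**Figure D3:**
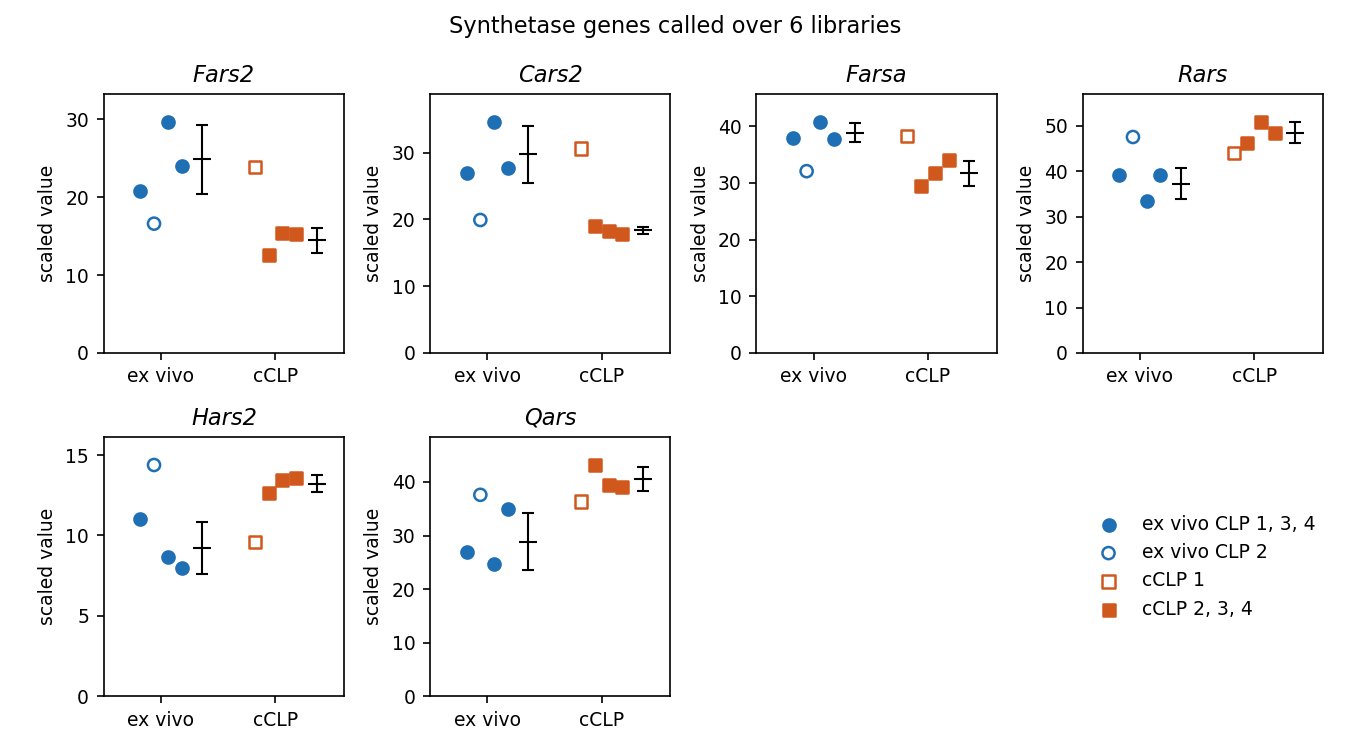
Scaled value by library of the 6 synthetase genes called over 6 libraries, with the mean and SD of the 3 libraries of each group at the right of its points. Open symbols are ex vivo CLP 2 and cCLP 1, which entered neither mean; for Cars2, cCLP 1 at 30.6 lies with the ex vivo libraries and ex vivo CLP 2 at 19.9 lies near the cCLP libraries.

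The libraries left out of these fits fell on the side of the other label for most of the 6 genes. Ex vivo CLP 2 was nearer the mean of cCLP 2 to 4 for 6 of the 6 (100.0%), against 91.4% of all genes called over 6 libraries. Library cCLP 1 was nearer the ex vivo mean for 4 of the 6 (66.7%), all but Qars and Rars, against 93.7%.

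The 8 complex enzymes were all tested over 6 libraries. Qars and Rars were higher, 0 were lower, and the median difference was 0.16. Of the 11 cytosolic members tested outside the complex, 0 were higher, 1 (Farsa) was lower, and the median was 0.00. By fold of the catalytic core, class I members had 2 higher and 1 lower of 13 tested (median 0.12), and class II members 1 higher and 2 lower of 14 (median -0.08). Eprs, which joins both classes, was counted in class I. Of all genes tested over these libraries 20.8% were higher and 22.2% lower. The differences between these groups were not tested. Gars and Kars, which serve both compartments, had differences of -0.26 ± 0.10 and -0.19 ± 0.10 and no call (adjusted p 0.0618 and 0.165, limma). Eprs, whose protein joins the glutamyl and prolyl enzymes in 1 chain, had a difference of 0.20 ± 0.09 without a call (adjusted p 0.0935, limma).

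The other mitochondrial members tested were Iars2, Sars2, Tars2 and Yars2, for isoleucine, serine, threonine and tyrosine. Their differences over 6 libraries were 0.14, -0.30, -0.20 and -0.15, and none was called. Iars2 shares 2034 transcript bases with the opposite-strand gene Rab3gap2, so its level is uncertain. The 8 mitochondrial genes under the filter were Aars2, Ears2, Lars2, Mars2, Nars2, Pars2, Vars2 and Wars2. With no filter on low values, Nars2 (0.50 ± 0.14, adjusted p 0.0256) and Pars2 (0.88 ± 0.21, adjusted p 0.0127) were also called higher by limma, giving 5 higher and 3 lower of 36. Calls among all genes rose too, to 2215 higher and 2761 lower, against 1369 and 1459 with the filter. Pars2, for proline, was at only 4, 2 and 4 deposited in ex vivo libraries 1, 3 and 4, and at 6, 8 and 8 in cCLP 2, 3 and 4.

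The synthetase genes whose promoters hold an ATF4-type element were examined as a group. The motif searched was the C/EBP-ATF response element in its core form TGATGNAA, on both strands, in the RefSeq promoters from 250 bases before to 50 after each start. A promoter was on hand for 27 of the 36 members, 28 promoters in all. The motif occurred in 5 of the 28 (17.9%) and in 1304 of all 32851 promoters (3.97%). The 5 genes were Aars, Gars, Iars, Tars and Yars, all cytosolic. Each window below is 5′ to 3′ on the gene's strand (GRCm38.p6), with the element in capitals, and is shown because these are the members with the ATF4-type letters near their start.
Aars, chr8:111033841-111033868, plus strand: gcgggtcactTTTCATCAgagcgctctg
Gars, chr6:55037961-55037988, plus strand: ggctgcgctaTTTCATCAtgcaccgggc
Iars, chr13:49682127-49682154, plus strand: actgtcagtaTTGCATCAcctccagacg
Tars, chr15:11399656-11399683, minus strand: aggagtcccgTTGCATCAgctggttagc
Yars, chr4:129189896-129189923, plus strand: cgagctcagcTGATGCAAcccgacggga
All but Yars carry the element in reverse orientation. It begins 30 bases before the start in Gars and 15 in Tars, 9 after it in Aars, 7 after in Iars and 3 after in Yars. A second motif, the E-box CACGTG, was added after this search and occurred in 5 of the 28 promoters (17.9%) against 7.15% of all. A match of letters is not a binding site.

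Over 6 libraries 0 of these 5 genes were called, against 22.2% of the 27 members tested and 43.0% of all genes tested. Atf4 itself was lower in cCLP. Atf4 was at 245.2, 454 and 378 in ex vivo libraries 1, 3 and 4, and at 193, 191 and 211 in cCLP 2, 3 and 4, with no overlap. Its difference was -0.81 ± 0.21 (359 ± 105.5 against 198 ± 11.3, SD, n = 3; adjusted p 0.0154, limma), held in 14 of 16 alternative settings and lost when ex vivo library 4 (adjusted p 0.0629) or cCLP library 2 (0.0583) was left out. Aars, the alanyl enzyme, was at 17.2, 17.3 and 19.6 in ex vivo libraries 1, 3 and 4, and at 17.9, 17.3 and 18.7 in cCLP 2, 3 and 4, a difference of 0.00 ± 0.10 with an interval of -0.23 to 0.22. The glycyl enzyme Gars had an interval of -0.48 to -0.04, the isoleucyl enzyme Iars -0.05 to 0.49, the threonyl enzyme Tars -0.05 to 0.37 and the tyrosyl enzyme Yars -0.21 to 0.39. The last 1326 bases of the longest Aars transcript also belong to Exosc6, and 2251 bases of the Iars transcript have a processed pseudogene copy, Gm4849, at 94.7% identity, so the levels of Aars and Iars are uncertain.

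Of 9 genes tested among Atf4 and its classical targets outside the family, 0 were higher and 2 lower, with a median of -0.24, where 20.8% of all genes were higher and 22.2% lower. Only 1 was lower without ex vivo CLP 4 or cCLP 2. The second lower gene was Mthfd2, a mitochondrial folate enzyme, at -0.90 ± 0.16 (adjusted p 0.00265, limma), which was under 10 in all 3 cCLP libraries, so the filter fixed its direction. Among 6 amino acid carriers tested, Slc3a2 and Slc7a5 were lower and Slc38a1 higher. Slc3a2, the heavy chain of the large neutral amino acid carrier, was at 57.5 ± 18.8 against 29.4 ± 0.978 (SD, n = 3), a difference of -0.90 ± 0.21 (adjusted p 0.00996, limma). Its light chain Slc7a5 differed by -0.59 ± 0.21 (adjusted p 0.0489, limma), which held in 6 of 16 settings (adjusted p up to 0.131). The glutamine carrier Slc38a1 differed by 0.40 ± 0.14 (adjusted p 0.0498, limma), which held in 5 of 16 (up to 0.153).

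Other lists of transfer RNA pathway genes had calls in both directions over 6 libraries, as did all genes tested (20.8% higher, 22.2% lower). Of the 3 complex scaffold genes, Eef1e1 was higher, at 40.0 ± 10.1 against 60.9 ± 6.50 (SD, n = 3; difference 0.62 ± 0.17, adjusted p 0.0208, limma). That call was lost when ex vivo library 3 (adjusted p 0.0619) or 4 (0.0607) or cCLP library 3 (0.0719) or 4 (0.0719) was left out. Of 4 synthetase-like and editing genes tested, 1 was higher and 1 lower. Dtd1, which removes D-amino acids from transfer RNA, was at 19.8 ± 1.08 against 9.44 ± 1.08 (SD, n = 3), a difference of -1.0013 ± 0.11 (adjusted p 0.000266, limma). In cCLP 2 and 4 it was under the filter of 10 (8.42 and 9.34), so Dtd1 passed only with the ex vivo libraries, where it was higher. It was not tested where every library had to reach 10. Ptrh2, a peptidyl-tRNA hydrolase, differed by 0.51 ± 0.16 (adjusted p 0.0302, limma), a call lost when cCLP library 2 (0.0735), 3 (0.0789) or 4 (0.0986) was left out.

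Genes for transfer RNA end processing and export had 3 higher and 3 lower of 14 tested, with a median of 0.06, a share close to the 43.0% of all genes called in either direction. The 3 higher became 1 with scaling by library sum or without ex vivo CLP 3, ex vivo CLP 4 or cCLP 2, and 0 without cCLP 3 or cCLP 4. Rtcb, the ligase that seals spliced transfer RNAs, was at 164 ± 13.5 against 107 ± 6.08 (SD, n = 3), a difference of -0.61 ± 0.10 (adjusted p 0.00204, limma). Of the protein subunits of RNase P, which trims the 5′ ends, Pop4 differed by -0.64 ± 0.11 and Rpp30 by -0.54 ± 0.16 (adjusted p 0.00238 and 0.0300, limma), while Rpp14 differed by 0.50 ± 0.15 and Rpp38 by 1.09 ± 0.31 (adjusted p 0.0288 and 0.0227, limma). The other subunits tested, Rpp21, Pop7 and Pop5, had differences of -0.46, 0.06 and 0.18 and no call. Rpp38 was under 10 in all 3 ex vivo libraries, so the filter fixed its direction, and its call held in 11 of 15 settings, that of Rpp14 in 10 of 16. Xpot, the exportin of transfer RNA, differed by 0.43 ± 0.12 (adjusted p 0.0234, limma). Rpp30, Xpot, Rpp21, Pop7 and Pop5 were named after their values were seen.

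RNA polymerase III transcribes the transfer RNA genes. The list of its subunits, transcription factors and regulators had 5 of 15 tested genes higher and 1 lower, with a median of 0.22. Of all genes tested, 43.0% were called in either direction. The 5 higher became 3 without ex vivo CLP 4 or cCLP 2 and 2 without cCLP 3 or cCLP 4. Gtf3c3 and Gtf3c1, subunits of the promoter-binding factor TFIIIC, were at 14.3 ± 2.95 against 24.5 ± 1.63 and at 20.7 ± 3.62 against 32.7 ± 2.64 (SD, n = 3 each). Their differences were 0.75 ± 0.15 and 0.64 ± 0.14 (adjusted p 0.00520 and 0.00656, limma). Polr3b, a core subunit of the polymerase, was lower, at 19.7 ± 2.11 against 11.4 ± 1.08, a difference of -0.74 ± 0.12 (adjusted p 0.00177, limma). The remaining higher genes were Gtf3c6 and Gtf3c4, also of TFIIIC, and the polymerase subunit Polr3k, with differences of 0.45, 0.39 and 0.33. The list of transfer RNA delivery factors held the 6 genes Eef1a1, Eef1b2, Eef1d, Eef1g, Tufm and Tsfm. These had 0 calls over 6 libraries, 0 unadjusted p-values below 0.05 and differences from -0.25 to 0.11 (limma). Over 8 libraries 0 genes of these lists were called by limma.

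**Figure D4:**
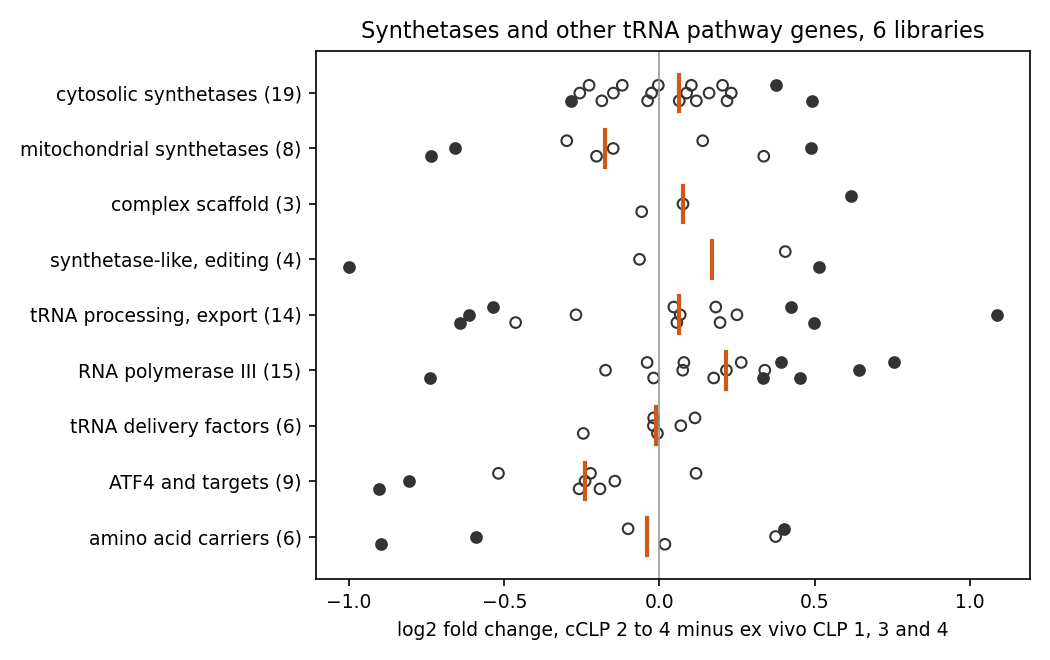
Log2 fold change over 6 libraries of the tested genes of each group, with the number tested in brackets. Filled points have an adjusted p below 0.05. Orange bars mark medians, which run from -0.24 for ATF4 and its targets to 0.22 for the RNA polymerase III list.

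Lars2, the mitochondrial leucyl-tRNA synthetase gene (ENSMUSG00000035202, chr9:123366927-123462666, plus strand), was the member that varied most between libraries of 1 group relative to its mean. Its deposited values were 1, 20, 1 and 1 in ex vivo CLP 1 to 4 and 2, 0, 4 and 0 in cCLP 1 to 4. The high value belonged to ex vivo CLP 2 alone, and Lars2 was not tested because it did not reach the filter in enough libraries. Gm42418, a non-coding gene (chr17:39846958-39848788) that RefSeq lists as a relative of 18S ribosomal RNA, was at 4, 145, 5 and 10 deposited in ex vivo libraries 1 to 4, and at 4, 7, 48 and 5 in cCLP 1 to 4. The same libraries, ex vivo CLP 2 and then cCLP 3, were highest for both genes. Gm26917, which lies beside Gm42418, did not follow them, at 4, 17, 17 and 23 against 11, 16, 29 and 20, nor did the mitochondrial ribosomal RNA mt-Rnr2, at 1056, 2260, 1428 and 2296 against 1773, 2418, 2073 and 2774. The part of Gm42418 in the Lars2 values was not tested.

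**Figure D5:**
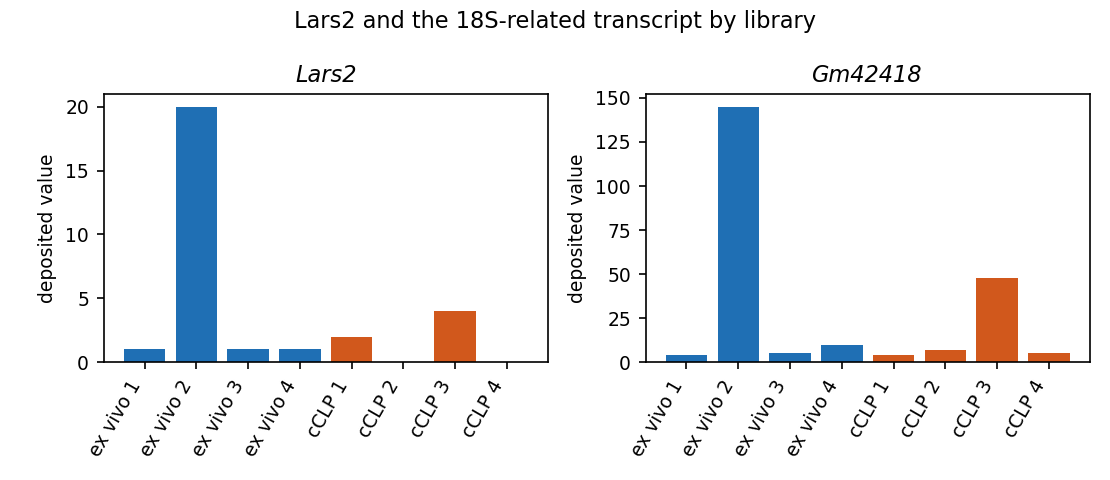
Deposited value of Lars2 (left) and of the 18S-related gene Gm42418 (right) in each library, ex vivo CLP in blue and cCLP in orange. Ex vivo CLP 2 is highest in both panels, at 20 and 145, followed by cCLP 3 at 4 and 48.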

How the data were processed

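Per the labels, 100 ng of total RNA from sorted cells was depleted of ribosomal RNA with Ribo-Zero, made into stranded libraries and sequenced as 75 nt pairs. TopHat2, Bowtie2 and HTSeq 1.0.6 with GRCm38 (mm10) are named in the submitters' processing notes; their roles, the strand setting, the annotation and any scaling are not given in the sources used here. The deposited value is treated as a score, a whole number per Ensembl ID. Between ex vivo CLP 3 and 4 its dispersion index averaged 0.541 over 6896 genes, and between cCLP 3 and 4 it averaged 0.260 over 6793 (Poisson counts average 1 or more), so tests for counts were not used and depth is unknown.

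Symbols came from GENCODE M21 (37693 of 39179 IDs matched) and promoters from RefSeq. Values were scaled by trimmed mean log ratios between libraries, leaving out 30% of ratios and 5% of levels. Genes entered the test with scaled values of 10 or more in enough libraries to fill the smaller group. Models of log2(scaled value + 1) were fitted with limma 3.58.1 (R 4.3.3, trend, robust), two-sided, with Benjamini-Hochberg adjustment over all genes tested. Fold changes on this scale understate the change of low genes. The fit was also run on simulated data. Their spread was capped and no simulated library lay with the other group, so that run does not cover such libraries. Printed scaled values use the factors of the 8 library fit. Shared sequence was searched with blastn 2.17.0 (at least 90% identity over 200 bases). Alternatives were other scalings, filters, pseudocounts, moderation, a replicate block and leaving out each library.

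The members and lists were chosen with earlier results of these data known. A gene meeting the rule and a promoter element are not reported here. Named with values were up to 8 called members per direction over 6 libraries, the 3 smallest p-values over 8, their partners for the same amino acid, and the 2 largest called changes per direction in each other list.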

Additional observations from a re-analysis of the deposited data

Results flagged for a closer look

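Within groups of 4 libraries, 72 sets of values were examined for 1 library far from the rest, where chance gives about 1 in 20, and 4 stood apart. In cCLP 1, Vars (the cytosolic valyl enzyme) was at a scaled value of 66.95 and Cars2 at 30.61, each above the other 3 cCLP libraries by most of the group's range. In ex vivo CLP 2, Lars2 was at 22.12 and Nars2 at 8.846, again above the other 3 libraries of the label. That count is near the chance rate. These are the same libraries whose whole profiles lay with the other group, but Lars2 in ex vivo CLP 2 was also far above cCLP 2 to 4 (0, 3.84 and 0).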

How the results depend on the processing

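Over 8 libraries, 0 members were called under every alternative except leaving out both ex vivo CLP 2 and cCLP 1. Without both, members higher were 3 and lower 3, 6 in all, and genes higher were 1369 and lower 1459. Over 6 libraries, scaling by library sum left 2 members lower, no filter gave 5 members higher with 2215 genes higher and 2761 lower, and a scaled value of at least 10 in every library gave 878 genes higher. Leaving out 1 library at a time gave 0 to 6 members higher, 2 to 4 lower and 2 to 10 in all. Among all genes it gave 889 to 1584 higher and 1217 to 1824 lower, against 1369 and 1459. The other lists then held 9 to 24 called genes, against 20. The highest member count came without ex vivo CLP 1, the lowest without cCLP 3 or cCLP 4. Differences near 0 changed sign for Farsb over 8 libraries (-0.0487 to 0.1008 as single libraries were left out) and Rars2 over 8 (-0.0525 to 0.2116). The cause of these changes was not tested.

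With a replicate block, 0 members were called over 8 libraries. Over 6, where only numbers 3 and 4 occur in both groups, the replicate block gave 3 higher and 2 lower; Qars (adjusted p 0.0717) and Farsa (0.302) lost their calls and Rars2 (0.0215) gained one. Same-numbered libraries correlated at 0.595, 0.843, -0.575 and -0.86 after the means of the labelled groups were removed. Those means include ex vivo CLP 2 and cCLP 1, which lay with the other group, so the correlations cannot show whether the numbers pair libraries. No label gave such a pairing, and the main fits used no block. Unknown depth leaves the smallest detectable value of the low mitochondrial genes unknown.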
